A study of Mus musculus with 6 samples.

Results

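RNA-seq values of 42 endothelial genes, the genes of the cells that line blood and lymph vessels, were compared in Achilles tendon of 3 mouse genotypes. The genes were taken by name from a list of endothelial markers, receptors, ligands and transcription factors, and all 42 were found among the 54189 features of the count table. The Control library came from Dicer f/f tendon, in which both Dicer alleles are flanked by recombination sites but no Cre is present. The ScxHt library came from tendon with 1 ScxCre knock-in allele and Dicer +/+, and the Dicer cKO library from tendon with the same ScxCre allele and Dicer f/f. All mice were 4 weeks old, and each genotype had 1 RNA-seq and 1 small RNA-seq library, made from 1 mouse. The knock-in places Cre under the endogenous Scx promoter, which is active mainly in tendon and ligament cells, and it inactivates 1 copy of Scx. ScxHt and Dicer cKO thus share a Scx allele that the Control lacks, and the Control and Dicer cKO share floxed Dicer alleles that ScxHt lacks. With 1 library per genotype the spread between mice is unknown, so no p-value is given, and genotype, mouse and dissection cannot be told apart.

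Blood vessels are lined by endothelial cells, which hold each other through junction proteins and respond to vascular endothelial growth factors (VEGF), angiopoietins, apelin and Notch ligands. Arteries, capillaries, veins and lymph vessels use these systems to different degrees and make partly different surface proteins. Tendon is sparsely supplied with vessels, which run mainly in its sheath and in the loose tissue between fibre bundles, whereas skeletal muscle is dense in capillaries. In whole tendon RNA, endothelial transcripts come from a minor cell population.

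The RNA-seq counts added up to 14959399 to 16244232 per library. Dicer1, the targeted gene, had 1919 Control, 2025 ScxHt and 1621 Dicer cKO reads, and this count covers the whole gene, also outside the floxed part. The 7 tendon markers chosen to check the tissue (Tnmd, Mkx, Fmod, Col1a1, Thbs4, Comp and Kera) were read in every library and made up 5.0% to 8.88% of its counts. The 42 endothelial genes made up 0.257% (Control), 0.197% (ScxHt) and 0.270% (Dicer cKO) of all counts. Single members had between 54 and 6347 reads in a library.

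Compared per length, in length- and depth-normalized reads (RPKM) as deposited, Cdh5, the cadherin of endothelial junctions, was the most abundant member in the Control library at 43.5. It was followed by Plvap, which forms the diaphragms of fenestrated capillaries, at 32.5, and by Ptprb, a phosphatase of endothelial junctions, at 29.3. The ligand Vegfa was at 27.6 and the adhesion molecule Pecam1 at 27.0. The least abundant member was the transcription factor Tal1 at 0.773, and the median over the members was 7.58. In the ScxHt library the median level was 5.45 and Plvap, at 29.7, was above Cdh5 at 28.7. In the Dicer cKO library the median was 7.73 and Cdh5 stood at 49.0. Cdh5 and Pecam1, which mark endothelium in most tissues, were thus well detected in all 3 libraries.

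**Figure D1:**
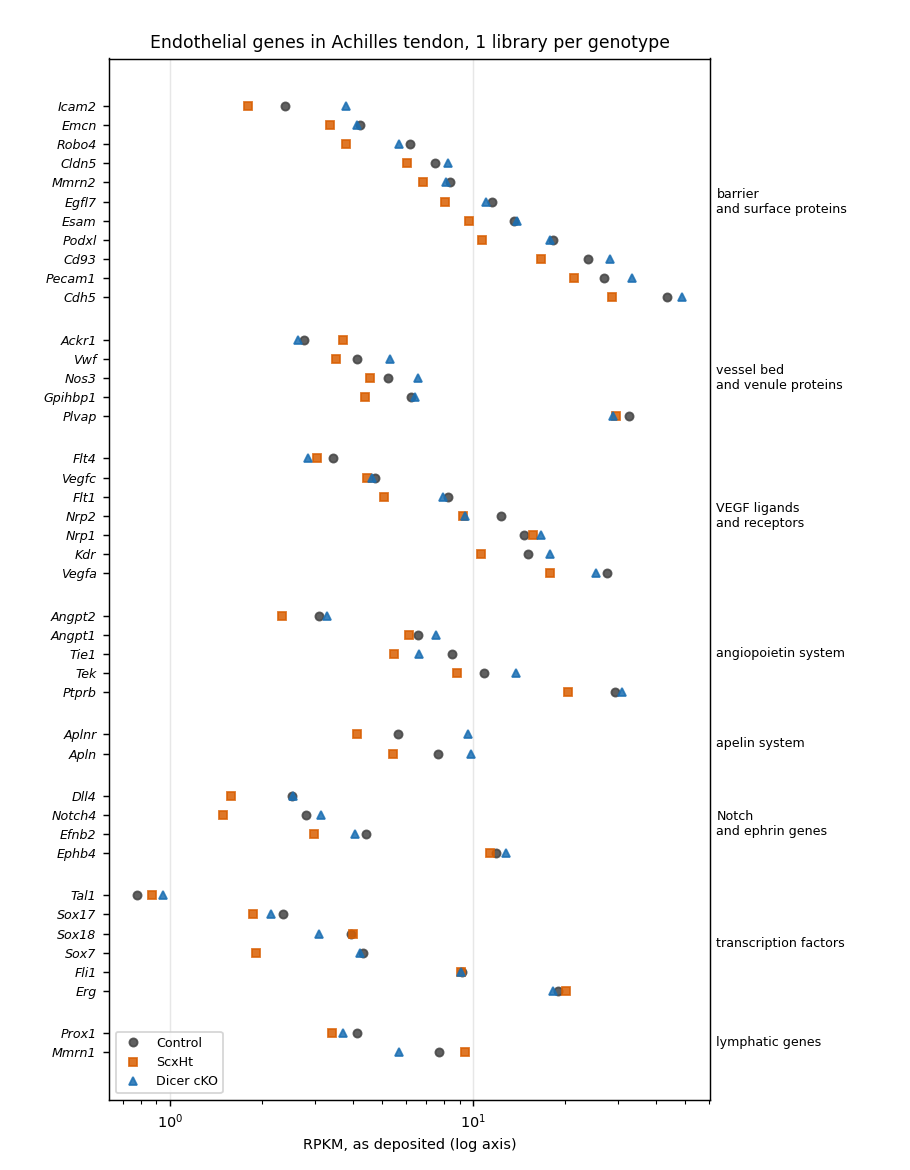
Level of each of the 42 endothelial genes in RPKM on a log axis, with 1 point per library (circles Control, squares ScxHt, triangles Dicer cKO) and genes grouped by role. The ScxHt squares lie left of both other symbols for most genes, such as Cdh5 at 28.7 against 43.5 and 49.0, and the points of Erg lie close together.

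For each pair of libraries, counts were divided by size factors that set the typical gene of the whole table equal, and the quotient of both libraries was formed. Genes with a mean normalized count above 50 were compared, which included all 42 members in each comparison. The study's limits were kept: a gene was called lower when its ratio was under 0.60, and higher when it was over an upper limit close to the reciprocal of 0.60. Each ratio has a 95% exact counting interval. These intervals cover counting error only. The 3 comparisons share libraries, so they do not stand for 3 separate observations.

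Most of the 42 endothelial genes had their lowest level in the ScxHt library. With size factors over all 3 libraries, 36 of the 42 had their smallest normalized count there, 5 had it in Dicer cKO (Flt4, Erg, Sox18, Mmrn1 and Ackr1) and 1 in the Control (Tal1). Among all 13532 genes with enough counts, 33.6% were lowest in ScxHt, 39.2% in Dicer cKO and 27.2% in the Control. The count of 36 became 33 with total-count scaling, where 24.3% of all genes were lowest in ScxHt. Mitochondrial transcripts were ordered in the same way, at 3.45% of the counts in Control, 2.12% in ScxHt and 4.43% in Dicer cKO, and their part in the ScxHt values was not tested.

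For ScxHt/Control, which compares tendon with 1 inactive Scx copy with Cre-free tendon, 39 of the 42 ratios were below 1, against 47.4% of all 13563 genes compared, and 3 were above 1, against 52.6%. The whole interval lay below 1 for 33 members, against 23.7% of all genes, and above 1 for 1 member, Mmrn1, against 26.4%. The median log2 ratio was -0.47, a ratio of 0.720, beside 0.02 over all genes. The limit of 0.60 was passed by 6 members, or 14.3% (Sox7, Notch4, Podxl, Flt1, Robo4 and Dll4), against 4.73% of all genes. None passed the upper limit, against 3.05%. In bulk RNA, fewer endothelial cells and less RNA per endothelial cell cannot be told apart.

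For Dicer cKO/Control, the 42 genes were centred close to 1, as was the rest of the table. The median log2 ratio was -0.07 beside -0.03 over all 13504 genes compared, with 18 ratios above 1, against 45.9% of all genes, and 24 below 1, against 54.1%. No member passed the upper limit, against 3.87% of all genes, and none passed 0.60, against 4.17%. The whole interval lay above 1 for 11 members, against 21.5% of all genes, and below 1 for 9, against 28.4%. The ratios ran from 0.703 for Mmrn1 to 1.63 for Aplnr.

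For Dicer cKO/ScxHt, the 2 genotypes that share the ScxCre allele, 37 of the 42 ratios were above 1, against 46.1% of all 13555 genes compared, and 5 below 1, against 53.9%. The median log2 ratio was 0.54 beside -0.03 over all genes. In this comparison 10 members passed the upper limit (Aplnr, Sox7, Notch4, Icam2, Apln, Cdh5, Kdr, Cd93, Podxl and Dll4), against 7.67% of all genes, and none was below 0.60, against 5.68%. The whole interval lay above 1 for 30 members, against 24.8% of all genes, and below 1 only for Mmrn1, against 30.5%.

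**Figure D2:**
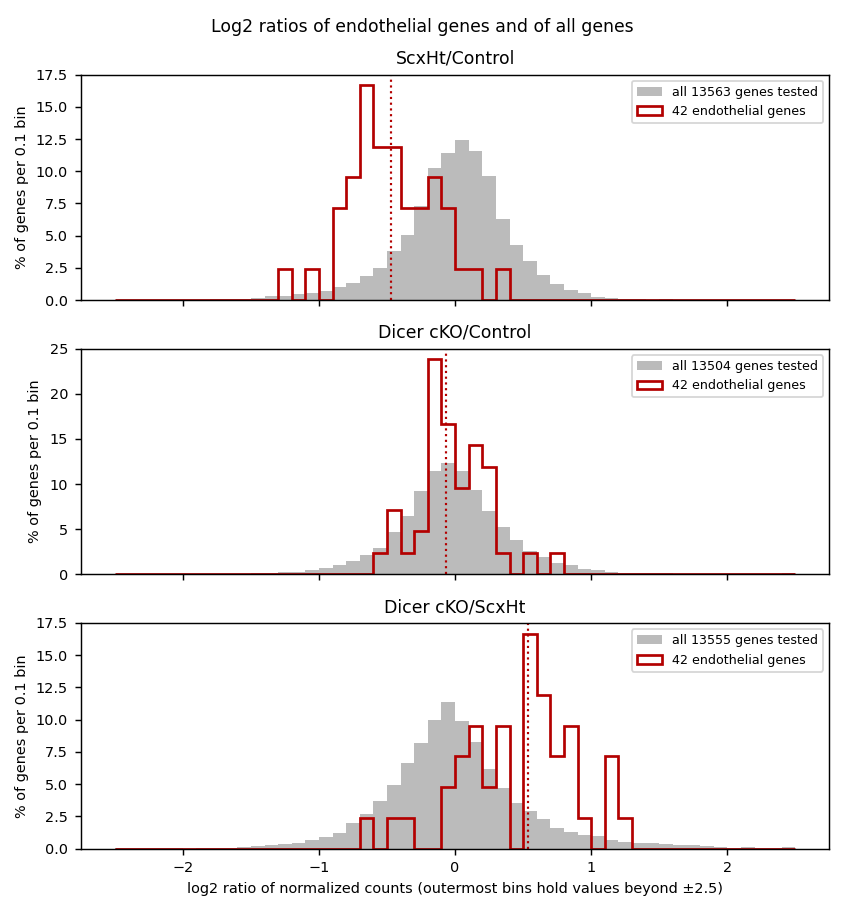
Share of genes in each bin of 0.1 log2 units, for all genes tested (grey) and for the 42 endothelial genes (red outline, dotted line at their median), in the 3 comparisons. The red outline is shifted to the left of the grey one in ScxHt/Control, with medians of -0.47 and 0.02, lies on it in Dicer cKO/Control, and is shifted to the right in Dicer cKO/ScxHt, with medians of 0.54 and -0.03.

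Transcripts of endothelial barrier and surface proteins were nearly all lower in ScxHt than in Control by their counting interval. All 11 had a ScxHt/Control ratio below 1, against 47.4% of all genes, and for 10 the whole interval lay below 1, against 23.7%. Cdh5, on chromosome 8 from 104101625 to 104144511 (GRCm38), had counts of 2973 (Control), 1899 (ScxHt) and 3080 (Dicer cKO). Its ratio was 0.612 (0.578 to 0.649) in ScxHt/Control, 1.08 (1.02 to 1.13) in Dicer cKO/Control and 1.79 (1.69 to 1.89) in Dicer cKO/ScxHt. The ScxHt library was therefore far below the other two, and Dicer cKO slightly above the Control. Pecam1, on chromosome 11 from 106654217 to 106750628, had 2727 Control, 2114 ScxHt and 3102 Dicer cKO reads. It was less reduced in ScxHt than Cdh5, with a ratio of 0.743 (0.702 to 0.787), and higher in Dicer cKO than in Control at 1.18 (1.12 to 1.24).

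Podxl, a sialomucin of the luminal surface that is also made outside endothelium, had counts of 1631 (Control), 923 (ScxHt) and 1473 (Dicer cKO) and a ScxHt/Control ratio of 0.542 (0.50 to 0.588). Robo4, a guidance receptor that stabilizes vessels, had 532 Control, 317 ScxHt and 451 Dicer cKO reads, and its ScxHt/Control ratio was 0.571 (0.495 to 0.657). These were the 2 genes of the group below 0.60, while their Dicer cKO/Control ratios were 0.938 (0.873 to 1.01) and 0.88 (0.775 to 0.9999). The interval of Podxl thus held 1, and that of Robo4 ended just below 1. Cd93, a surface lectin of endothelium, and its extracellular ligand Mmrn2 were both below the Control in ScxHt, with ratios of 0.652 (0.613 to 0.693) for Cd93 and 0.757 (0.665 to 0.861) for Mmrn2. Against the Control, Cd93 was higher in Dicer cKO at 1.13 (1.07 to 1.19), and the interval of Mmrn2 held 1 at 0.927 (0.819 to 1.05).

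The tight junction proteins Esam and Cldn5 had ScxHt/Control ratios of 0.663 (0.586 to 0.75) and 0.752 (0.596 to 0.948), and the sialomucin Emcn, typical of capillaries and veins, one of 0.739 (0.632 to 0.865). Their Dicer cKO/Control intervals all held 1. Icam2, an adhesion molecule for leukocytes, had counts of 74 (Control), 54 (ScxHt) and 108 (Dicer cKO), the fewest of the group. Its Dicer cKO/Control ratio was 1.52 (1.12 to 2.07), the second highest of all members, and the ScxHt/Control interval of 0.483 to 1.01 just reached 1.

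Egfl7, a secreted matrix protein of endothelium, had 670 Control, 456 ScxHt and 592 Dicer cKO reads. Its ratio was 0.652 (0.578 to 0.736) in ScxHt/Control and 0.918 (0.82 to 1.03) in Dicer cKO/Control. Egfl7 is the host gene of miR-126, the microRNA most typical of endothelium, whose hairpin lies in an intron of the main transcript on chromosome 2 from 26591357 to 26591429. The mature strand listed by RefSeq for this locus (GRCm38.p6) is printed because it ties the gene to the small RNA-seq data, with its seed (bases 2 to 8) in capitals.
mmu-miR-126a-3p: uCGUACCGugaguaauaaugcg
In small RNA-seq, Mir126a had 201949 Control, 150234 ScxHt and 180654 Dicer cKO reads. These were 1.84%, 1.78% and 2.14% of the counts and ranks 17, 16 and 19. Its ScxHt/Control ratio was 0.838 (0.833 to 0.844) and its Dicer cKO/Control ratio 1.03 (1.02 to 1.03). With total-count scaling the first became 0.969 and the second 1.17, so the values of the microRNA depended on the scaling. The hairpin also has a row of its own in the RNA-seq table, with 32 Control, 9 ScxHt and 15 Dicer cKO reads. Mir126b, the hairpin on the opposite strand, had at most 7 small RNA-seq reads in a library, and no ratio is drawn from it.

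Genes that mark particular vessel beds differed more from each other. Vwf, the clotting factor stored in endothelial cells and platelets, had counts of 1078 (Control), 891 (ScxHt) and 1280 (Dicer cKO) and ratios of 0.792 (0.724 to 0.866) in ScxHt/Control and 1.23 (1.14 to 1.34) in Dicer cKO/Control. Nos3, the endothelial nitric oxide synthase, had 351 Control, 298 ScxHt and 405 Dicer cKO reads and ratios of 0.814 (0.695 to 0.952) and 1.2 (1.04 to 1.39). For both, ScxHt was lowest and Dicer cKO highest. Gpihbp1, which carries lipoprotein lipase to the capillary lumen, had a lower ScxHt/Control ratio of 0.655 (0.538 to 0.796), and its Dicer cKO/Control interval held 1.

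Plvap had counts of 1051 (Control), 930 (ScxHt) and 858 (Dicer cKO). It had the same ratio of 0.848 in ScxHt/Control (0.775 to 0.927) and Dicer cKO/Control (0.774 to 0.929), and the interval of Dicer cKO/ScxHt held 1. Ackr1, the chemokine-binding receptor of venules, had 63 Control, 83 ScxHt and 56 Dicer cKO reads and was 1 of the 3 members with a ScxHt/Control ratio above 1, at 1.26 (0.899 to 1.78). At this depth none of its 3 intervals excluded 1. The ScxHt/Control ratios of Plvap and Ackr1 lay above those of the barrier genes, although some of the intervals overlapped. Ackr1 shares exonic bases with another gene, so its counts are less certain. These values do not stand for venules as a whole. The venular adhesion molecule Selp, which is not a member, had a ScxHt/Control ratio of 0.509 (0.355 to 0.722), with 96 Control and 51 ScxHt reads.

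The platelet list, a check on Vwf, Mmrn1, Pecam1 and Fli1, which platelets or their precursors also make, was read at low counts. Its 6 genes together had 251 Control, 300 ScxHt and 179 Dicer cKO reads, with Ppbp at 0 in all 3 and Gp9 and Gp6 at 0 in 1 library each. Pf4, a chemokine of platelet granules, had 39 Control, 89 ScxHt and 18 Dicer cKO reads and ratios of 2.19 (1.49 to 3.27) in ScxHt/Control, above the upper limit, and 0.223 (0.126 to 0.373) in Dicer cKO/ScxHt, below 0.60. Gp1bb, a subunit of the platelet receptor for Vwf, had 145 Control, 165 ScxHt and 109 Dicer cKO reads. Its intervals of 0.867 to 1.37 in ScxHt/Control and 0.603 to 1.01 in Dicer cKO/Control held 1. Pf4 and Gp1bb were highest in ScxHt and lowest in Dicer cKO, the order that Mmrn1 also had. Itga2b, another gene of the list, was ordered otherwise and lowest in ScxHt, with 57 Control, 42 ScxHt and 48 Dicer cKO reads. The part of platelets in the Mmrn1 values was not tested.

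In the VEGF system, the ligand Vegfa had counts of 1920 (Control), 1214 (ScxHt) and 1624 (Dicer cKO). Its ratio was 0.606 (0.563 to 0.651) in ScxHt/Control and 0.878 (0.822 to 0.939) in Dicer cKO/Control, so that both ScxCre libraries were below the Control. Vegfa is made by muscle fibres, fibroblasts and other cells rather than mainly by endothelium. Vegfc, the ligand of lymphatic growth, had 188 Control, 172 ScxHt and 170 Dicer cKO reads and no interval that excluded 1. The tyrosine kinase receptor Kdr (VEGFR2), the main signalling receptor for Vegfa, on chromosome 5 from 75932827 to 75978458, had counts of 2227 (Control), 1511 (ScxHt) and 2424 (Dicer cKO). Kdr followed the pattern of Cdh5, at 0.65 (0.609 to 0.694) in ScxHt/Control, 1.13 (1.07 to 1.2) in Dicer cKO/Control and 1.77 (1.66 to 1.89) in Dicer cKO/ScxHt.

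Flt1 (VEGFR1), which binds Vegfa and acts largely as a decoy, on chromosome 5 from 147561604 to 147726011, had 1815 Control, 1080 ScxHt and 1603 Dicer cKO reads. It was below the limit in ScxHt/Control at 0.57 (0.528 to 0.615), and slightly lower in Dicer cKO than in Control at 0.917 (0.857 to 0.981). Flt4 (VEGFR3), the receptor for Vegfc that is concentrated on lymphatic endothelium, had counts of 460 (Control), 395 (ScxHt) and 351 (Dicer cKO). Its ratio to the Control was 0.823 (0.718 to 0.943) in ScxHt and 0.792 (0.688 to 0.912) in Dicer cKO, and the interval between those 2 libraries held 1.

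The neuropilins Nrp1 and Nrp2 are co-receptors for VEGF and semaphorins and are made by many cell types. Nrp1 had 2334 Control, 2420 ScxHt and 2438 Dicer cKO reads and hardly differed, with 0.994 (0.938 to 1.05) in ScxHt/Control and 1.08 (1.02 to 1.15) in Dicer cKO/Control. Nrp2, used by veins and lymph vessels, had counts of 2373 (Control), 1728 (ScxHt) and 1662 (Dicer cKO) and was lower than the Control in both other libraries, at 0.698 (0.655 to 0.743) in ScxHt and 0.727 (0.683 to 0.775) in Dicer cKO. The Nrp2 interval of Dicer cKO/ScxHt, 0.99 to 1.13, held 1.

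The angiopoietin receptors Tek (TIE2) and Tie1 were not alike in Dicer cKO. Tek, the receptor for angiopoietins, had 829 Control, 656 ScxHt and 974 Dicer cKO reads and ratios of 0.758 (0.683 to 0.841) in ScxHt/Control and 1.22 (1.11 to 1.34) in Dicer cKO/Control. Tie1, its partner receptor, had counts of 679 (Control), 426 (ScxHt) and 486 (Dicer cKO) and ratios of 0.601 (0.531 to 0.68) and 0.743 (0.66 to 0.836). Against the Control, Tek was thus higher and Tie1 lower in Dicer cKO, and both were lower in ScxHt, where Tie1 lay just above the limit of 0.60. Ptprb, the phosphatase that acts on Tek, had the most reads of all members, 6347 Control, 4303 ScxHt and 6170 Dicer cKO reads, and ratios of 0.65 (0.625 to 0.675) and 1.01 (0.975 to 1.05).

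The agonist Angpt1, which pericytes and other mesenchymal cells make, had counts of 554 (Control), 504 (ScxHt) and 587 (Dicer cKO) and the smallest ScxHt difference of the 5 genes, 0.872 (0.771 to 0.985). Angpt2, released by endothelium at sites of vessel remodelling, had 186 Control, 136 ScxHt and 182 Dicer cKO reads and ratios of 0.701 (0.557 to 0.879) in ScxHt/Control and 1.02 (0.824 to 1.25) in Dicer cKO/Control. All 5 genes of this system had their whole ScxHt/Control interval below 1, against 23.7% of all genes.

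The apelin pair stood highest in Dicer cKO. Apln, the peptide ligand made by sprouting endothelial tips, had counts of 392 (Control), 269 (ScxHt) and 461 (Dicer cKO), with 0.658 (0.561 to 0.77) in ScxHt/Control and 1.22 (1.07 to 1.4) in Dicer cKO/Control. Aplnr, its G protein-coupled receptor, on chromosome 2 from 85136225 to 85139923, had 338 Control, 240 ScxHt and 532 Dicer cKO reads. The Aplnr ratio of Dicer cKO/Control, 1.63 (1.42 to 1.88), lay just under the upper limit, which it passed with total-count scaling at 1.71. Against ScxHt, Aplnr had the highest ratio of all members at 2.44 (2.09 to 2.86), and Apln was at 1.89 (1.62 to 2.2).

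**Figure D3:**
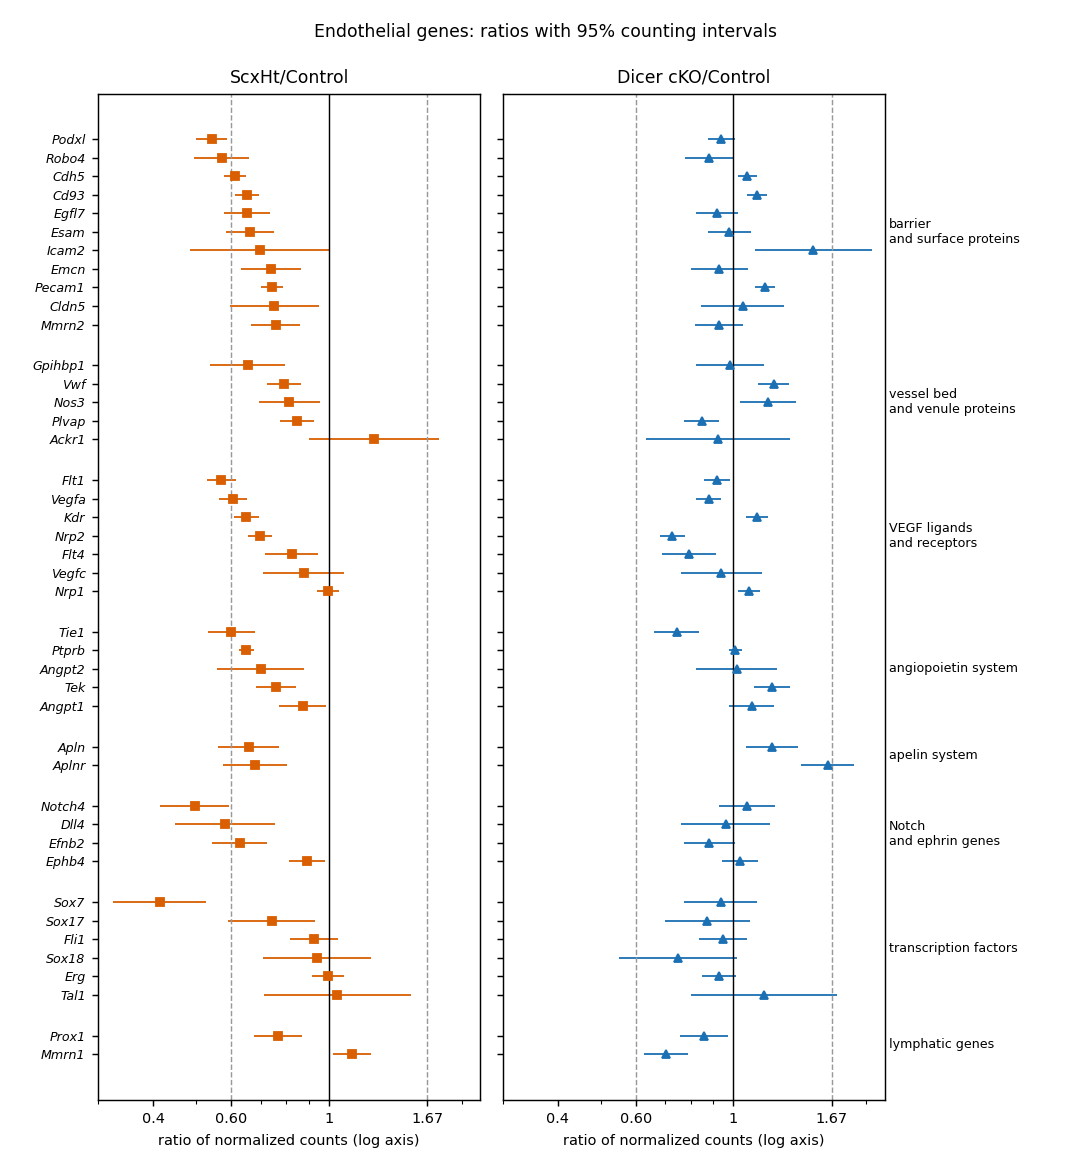
Ratio of normalized counts on a log axis for each endothelial gene, ScxHt/Control on the left and Dicer cKO/Control on the right, with 95% counting intervals as bars, a solid line at 1 and dashed lines at the lower and upper limits. On the left 39 of 42 points are below 1 and 6 are below 0.60, from Sox7 at 0.415, and on the right 24 are below 1 and none passes a dashed line.

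Notch and ephrin genes set apart arterial from venous endothelium. Notch4, the Notch receptor restricted to endothelium, on chromosome 17 from 34564268 to 34588503, had counts of 367 (Control), 190 (ScxHt) and 380 (Dicer cKO). It had the second lowest ScxHt/Control ratio of all members, 0.496 (0.414 to 0.593), and a Dicer cKO/ScxHt ratio of 2.2 (1.85 to 2.64). Dll4, the Notch ligand of arteries and sprouting tips, had 158 Control, 96 ScxHt and 146 Dicer cKO reads and a ScxHt/Control ratio of 0.582 (0.447 to 0.755). Its interval reaches well above 0.60, and 214 of its exonic bases are shared with a transcript on the opposite strand. Efnb2, the ephrin of arteries, had counts of 491 (Control), 322 (ScxHt) and 417 (Dicer cKO) and a ScxHt/Control ratio of 0.628 (0.544 to 0.725), whereas Ephb4, its receptor on veins, had 893 Control, 831 ScxHt and 890 Dicer cKO reads and one of 0.892 (0.81 to 0.981). Those 2 intervals do not overlap, so Efnb2 was further below the Control in ScxHt than Ephb4 by more than counting error. Arterial and venous genes as a whole did not divide in this way. The arterial genes Sema3g, Sox17 and Gja4 were at 0.552, 0.742 and 1.05. The venous or venular genes Selp, Nrp2 and Ackr1 were at 0.509, 0.698 and 1.26. None of Notch4, Dll4, Efnb2 and Ephb4 had a Dicer cKO/Control interval that excluded 1. Over all genes, 21.5% had one above 1 and 28.4% one below 1.

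Among the transcription factors, the SOXF genes Sox7, Sox17 and Sox18, which act partly redundantly in endothelium, were not alike in ScxHt/Control, where the interval of Sox7 lay below those of the other two. Sox7, on chromosome 14 from 63943673 to 63950732, had counts of 231 (Control), 100 (ScxHt) and 208 (Dicer cKO), and its ScxHt/Control ratio of 0.415 (0.325 to 0.527) was the lowest of the 42. In Dicer cKO it was close to the Control at 0.935 (0.772 to 1.13). Sox17, an arterial factor, had 182 Control, 141 ScxHt and 153 Dicer cKO reads and ratios of 0.742 (0.592 to 0.93) and 0.873 (0.699 to 1.09). Sox18, a factor of lymphatic specification, had counts of 104 (Control), 102 (ScxHt) and 75 (Dicer cKO), and neither its ScxHt/Control ratio of 0.94 (0.708 to 1.25) nor its Dicer cKO/Control ratio of 0.749 (0.549 to 1.02) had an interval without 1.

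The ETS factors Erg and Fli1 drive many endothelial genes. Erg had 1068 Control, 1108 ScxHt and 953 Dicer cKO reads, and its ratios were 0.994 (0.913 to 1.08) in ScxHt/Control and 0.927 (0.848 to 1.01) in Dicer cKO/Control. Fli1 had counts of 519 (Control), 501 (ScxHt) and 473 (Dicer cKO), with 0.925 (0.817 to 1.05) and 0.946 (0.834 to 1.07). Unlike the barrier genes, neither had an interval that excluded 1 in any comparison. Erg is also made in cartilage and Fli1 in blood cells. Tal1, a factor of blood and endothelial progenitors, had 55 Control, 60 ScxHt and 62 Dicer cKO reads, and no interval of it excluded 1.

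The promoters of the members below 0.60 in ScxHt/Control were looked at for the ETS core AGGAAG, the sequence that factors such as ERG and FLI1 bind. RefSeq promoters (GRCm38.p6, 250 bases before to 50 after the start) were matched for 23 of the 42 members, among them Notch4, Flt1, Robo4 and Dll4. These 4 are printed in the direction of transcription, with AGGAAG on either strand in capitals (CTTCCT where it is on the other strand).
Notch4, chr17:34564045-34564344, plus strand: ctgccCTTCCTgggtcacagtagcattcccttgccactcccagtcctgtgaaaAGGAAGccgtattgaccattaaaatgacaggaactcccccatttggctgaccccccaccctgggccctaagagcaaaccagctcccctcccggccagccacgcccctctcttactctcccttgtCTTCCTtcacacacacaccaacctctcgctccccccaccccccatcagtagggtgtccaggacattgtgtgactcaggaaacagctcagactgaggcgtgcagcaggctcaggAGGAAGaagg
Flt1, chr5:147725962-147726261, minus strand: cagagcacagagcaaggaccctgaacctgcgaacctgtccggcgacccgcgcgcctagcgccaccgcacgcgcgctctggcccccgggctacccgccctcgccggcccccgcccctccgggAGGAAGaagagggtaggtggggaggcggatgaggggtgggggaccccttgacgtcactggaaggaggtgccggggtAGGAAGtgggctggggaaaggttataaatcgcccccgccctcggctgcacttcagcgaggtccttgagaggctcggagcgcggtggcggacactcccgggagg
Robo4, chr9:37401722-37402021, plus strand: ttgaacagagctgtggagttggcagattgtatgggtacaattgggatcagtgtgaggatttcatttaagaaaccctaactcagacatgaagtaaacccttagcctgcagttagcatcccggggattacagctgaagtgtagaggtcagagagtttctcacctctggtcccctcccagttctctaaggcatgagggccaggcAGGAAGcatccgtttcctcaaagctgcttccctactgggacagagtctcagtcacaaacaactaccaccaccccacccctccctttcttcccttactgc
Dll4, chr2:119325534-119325833, plus strand: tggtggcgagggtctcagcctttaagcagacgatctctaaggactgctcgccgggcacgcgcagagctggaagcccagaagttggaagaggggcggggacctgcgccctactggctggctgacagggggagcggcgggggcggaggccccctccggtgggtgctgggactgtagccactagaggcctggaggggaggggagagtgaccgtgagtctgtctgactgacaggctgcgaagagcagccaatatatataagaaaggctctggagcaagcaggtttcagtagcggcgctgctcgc
The Notch4 window holds 4 matches, the Flt1 window 2, the Robo4 window 1 and the Dll4 window 0. At least 1 match was found in 9 of the 23 member promoters (39.1%) and in 35.1% of all 27025 promoters of this length, with a mean of 0.826 and 0.461 matches per promoter. The share with a match was therefore close to that of all promoters. The SOX core ACAAT was found in 5 of 23 (21.7%) and in 31.6% of all. A match is a description of the letters and not a binding site.

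Of the 2 genes grouped as lymphatic, Mmrn1 was ordered unlike most members and Prox1 was lowest in ScxHt like most members. Mmrn1, a matrix protein of lymphatic endothelium and platelets, on chromosome 6 from 60924976 to 60989378, had counts of 736 (Control), 868 (ScxHt) and 498 (Dicer cKO). It was the only member whose interval lay above 1 in ScxHt/Control, at 1.13 (1.02 to 1.25), and it had the lowest ratio of all members in Dicer cKO/Control, at 0.703 (0.626 to 0.788), and in Dicer cKO/ScxHt, at 0.632 (0.565 to 0.707). Prox1, the master regulator of lymphatic fate, which muscle also makes, had 563 Control, 451 ScxHt and 465 Dicer cKO reads, with ratios of 0.768 (0.677 to 0.87) and 0.858 (0.757 to 0.972). Mmrn1, Prox1, Flt4 and Nrp2, 4 genes used by lymph vessels, had Dicer cKO/Control intervals below 1, against 28.4% of all genes. Those of Vegfc and Sox18 held 1. The 4 were put together after their values were seen, so their shared direction is no result about lymph vessels as a whole.

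Of the other lymphatic genes that are not members, Lyve1, a hyaluronan receptor of lymph vessels and of some macrophages, had counts of 528 (Control), 921 (ScxHt) and 352 (Dicer cKO). Its ratios were 1.672 (1.5 to 1.86), barely over the upper limit, in ScxHt/Control and 0.692 (0.603 to 0.794) in Dicer cKO/Control. Ccl21a, a chemokine of lymph vessels, had 135 Control, 185 ScxHt and 97 Dicer cKO reads and ratios of 1.31 (1.05 to 1.65) and 0.746 (0.569 to 0.976). Both were ordered like Mmrn1, with ScxHt highest and Dicer cKO lowest. Reln and Pdpn, which lymphatic endothelium also makes, had Dicer cKO/Control ratios of 1.08 (0.95 to 1.22) and 1.15 (0.916 to 1.45), with intervals that held 1. Macrophage genes were ordered in the same way: the 5 markers Adgre1, Cd68, Csf1r, Mrc1 and Cd163 had 2796 Control, 5067 ScxHt and 2063 Dicer cKO reads, and their part in the Lyve1 and Mmrn1 values was not tested.

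Each member was also set against the summed counts of Pecam1, Cdh5 and Tie1 in the same pair of libraries. This gave an odds ratio with an exact interval, which needs no scaling between libraries. The 3 core genes together had 6379 Control, 4439 ScxHt and 6668 Dicer cKO reads. Their ratio was 0.667 (0.642 to 0.693) in ScxHt/Control, 1.09 (1.05 to 1.12) in Dicer cKO/Control and 1.66 (1.59 to 1.72) in Dicer cKO/ScxHt. The median ratio over all genes was 1.01, 0.977 and 0.976. A gene at that median therefore lies above the core in ScxHt/Control and below it in Dicer cKO/Control and Dicer cKO/ScxHt. The share of all genes above or below the core was not computed, so the counts below have no background. The core is not uniform, since Tie1 against the 2 other core genes had an odds ratio of 0.66 (0.583 to 0.747) in Dicer cKO/Control and Pecam1 one of 1.22 (1.13 to 1.32) in ScxHt/Control.

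Relative to this core in ScxHt/Control, the interval lay below 1 for 6 of the 39 other members: Flt1, Sox7, Robo4, Vegfa, Notch4 and Podxl. Sox7 was at 0.622 (0.485 to 0.793), Notch4 at 0.744 (0.618 to 0.893) and Podxl at 0.813 (0.743 to 0.89). It lay above 1 for 16 members, among them the transcription factors Erg at 1.49 (1.36 to 1.64), Fli1 at 1.39 (1.22 to 1.58) and Sox18 at 1.41 (1.06 to 1.88), the venous genes Ackr1 at 1.89 (1.34 to 2.68) and Ephb4 at 1.34 (1.21 to 1.48), and Mmrn1 at 1.69 (1.52 to 1.89). Kdr at 0.975 (0.903 to 1.05), Cd93 at 0.978 (0.91 to 1.05), Egfl7 at 0.978 (0.861 to 1.11) and Ptprb at 0.974 (0.922 to 1.03) had intervals that held 1. So did Nrp2, used by veins and lymph vessels, at 1.05 (0.972 to 1.13), and Emcn, typical of capillaries and veins, at 1.11 (0.943 to 1.3). Venous genes were thus not all above the core. Erg and Nrp1 were above the core although their own ScxHt/Control ratios were both 0.994.

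In Dicer cKO/Control, 4 members were above the core by their interval (Aplnr, Icam2, Tek and Vwf) and 17 were below it. Aplnr stood at 1.51 (1.31 to 1.74) and Icam2 at 1.4 (1.03 to 1.91). The lowest were Mmrn1 at 0.647 (0.574 to 0.73), Nrp2 at 0.67 (0.623 to 0.72), Sox18 at 0.69 (0.505 to 0.939) and Flt4 at 0.73 (0.631 to 0.844), and Plvap was at 0.781 (0.708 to 0.861). Against ScxHt, Sox7, Aplnr and Notch4 were above the core by their interval and 18 members below it.

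**Figure D4:**
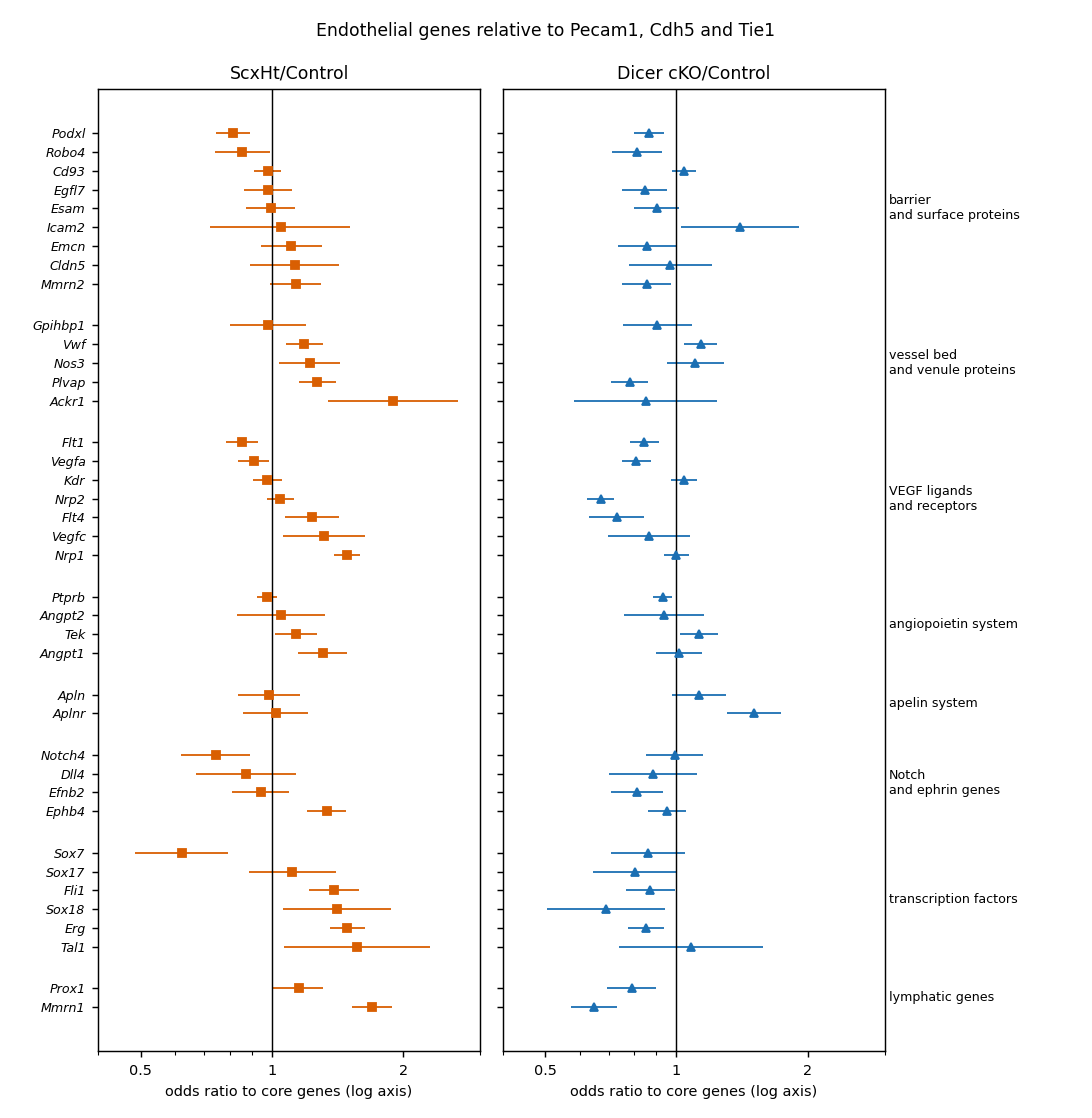
Odds ratio of each endothelial gene to the summed counts of Pecam1, Cdh5 and Tie1, on a log axis with 95% exact intervals, in ScxHt/Control (left) and Dicer cKO/Control (right). Sox7 (0.622) and Notch4 (0.744) lie left of 1 in ScxHt/Control, the points of Erg, Nrp1 and Mmrn1 lie right of it, and Mmrn1 and Nrp2 lie left and Aplnr (1.51) right of 1 in Dicer cKO/Control.

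Other genes of the same pathways were read from a list of 24, of which Vegfd was not found by this symbol and Apela had no reads. In ScxHt/Control 21 were compared: the interval lay below 1 for 9, against 23.7% of all genes, and above 1 for 7, against 26.4%. Only Sema3g was under 0.60, against 4.73% of all genes, and only Pgf over the upper limit, against 3.05%. Sema3g, an arterial semaphorin, was at 0.552 (0.422 to 0.719), and Pgf, a VEGF family ligand that binds Flt1, at 1.85 (1.32 to 2.61). In Dicer cKO/Control 22 were compared, with the interval below 1 for 9, against 28.4% of all genes, and above 1 for 6, against 21.5%. The Notch ligand Dll1 was at 0.553 (0.417 to 0.729) and the Notch target Hey2, an arterial factor also made by muscle progenitors, at 3.22 (2.1 to 5.08). The hypoxia factors Epas1, typical of endothelium, and Hif1a, made by most cells, were unlike each other in ScxHt/Control, at 0.68 (0.648 to 0.714) and 1.27 (1.22 to 1.32). Among 22 compared in Dicer cKO/ScxHt, Heyl and Hey2 passed the upper limit, against 7.67% of all genes. Hif1a and Hes1 were under 0.60, against 5.68%.

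A second list held 31 endothelial genes that are not members, many of which other cells make as well. In ScxHt/Control 28 were compared and their median log2 ratio was -0.13, beside -0.47 for the members. The interval lay below 1 for 12, against 23.7% of all genes, and above 1 for 4, against 26.4%. In this comparison 3 were below 0.60 (Selp, Ushbp1 and Klf2), against 4.73% of all genes. Lyve1 was just over the upper limit, against 3.05%. The genes of this list found mainly in endothelium were not alike. Rasip1, a regulator of vessel lumens, was at 0.622 (0.535 to 0.723), Arhgef15, an exchange factor of endothelium, at 0.602 (0.513 to 0.707) and Ushbp1 at 0.572 (0.483 to 0.676), in the range of the barrier genes. Clec14a, a surface lectin of endothelium, was at 0.849 (0.717 to 1.01) and Myct1 at 0.808 (0.645 to 1.01), with intervals that held 1. Gja4, a gap junction protein of arteries, was at 1.05 (0.758 to 1.44). Gja5, another gap junction gene of the list, was at 0.319 (0.188 to 0.524), with 66 Control and 22 ScxHt reads. Its mean count of 44.5 was under the minimum, so it was not among the 28. Cd34, which fibroblasts also make, was higher in ScxHt by its interval at 1.23 (1.17 to 1.29). The venular adhesion molecule Selp was at 0.509 (0.355 to 0.722). Genes shared with fat and muscle were close to the Control level, such as Cd36 at 0.996 (0.959 to 1.04) and Fabp4 at 0.962 (0.928 to 0.997). In Dicer cKO/Control, 29 were compared with a median of -0.04. Of these, 2 were below 0.60, against 4.17% of all genes: the shear-responsive factors Klf2 at 0.364 (0.315 to 0.42) and Klf4 at 0.365 (0.336 to 0.395). Both were also lower in ScxHt/Control by their interval, Klf2 at 0.578 (0.513 to 0.651) and Klf4 at 0.674 (0.632 to 0.718). Fibroblasts also make both, and both respond early to handling of tissue. The part of fibroblasts and of handling in these values was not tested.

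Pericytes and smooth muscle cells surround vessels, and 10 of their genes were summed. Their summed normalized counts were in a ratio of 0.793 in ScxHt/Control and 1.07 in Dicer cKO/Control. In ScxHt/Control 9 of the 10 were compared. The interval lay below 1 for 4, against 23.7% of all genes, and above 1 for 1, against 26.4%. Rgs5, the most typical pericyte marker, had counts of 5826 (Control), 3669 (ScxHt) and 5426 (Dicer cKO) and ratios of 0.603 (0.579 to 0.629) and 0.967 (0.932 to 1.0). Abcc9, a channel subunit of pericytes and muscle, had 2482 Control, 1611 ScxHt and 3213 Dicer cKO reads, with ratios of 0.622 (0.584 to 0.663) and 1.34 (1.28 to 1.42). Pdgfrb and Cspg4, which fibroblasts also make, were at 0.96 (0.901 to 1.02) and 1.07 (1.02 to 1.12) in ScxHt/Control.

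Muscle markers moved between the same libraries. The 7 genes Acta1, Ckm, Mylpf, Tnnt3, Myh4, Ttn and Atp2a1 made up 5.03% (Control), 2.86% (ScxHt) and 8.75% (Dicer cKO) of all counts, and their summed ratio was 0.529 in ScxHt/Control and 1.66 in Dicer cKO/Control. The sum is mostly Ttn, with 688745 Control, 329060 ScxHt and 1062030 Dicer cKO reads, and the median ratio of the 7 in ScxHt/Control was 0.832. In that comparison the interval lay below 1 for 5 of them, against 23.7% of all genes. It lay above 1, against 26.4%, for Mylpf, at 1.12 (1.07 to 1.17), and Myh4, the myosin of the fastest fibres, at 4.7 (4.59 to 4.81). The muscle genes were thus not uniformly lowest in ScxHt. In Dicer cKO/Control all 7 intervals lay above 1, against 21.5% of all genes, whereas the summed endothelial ratio was 1.01. The 5 erythroid genes had a summed ratio of 0.954 in ScxHt/Control and 2.33 in Dicer cKO/Control, the 4 adipocyte genes ratios of 1.28 and 1.09, the 4 Schwann cell genes 0.944 and 10.3, and the 7 tendon genes 0.766 and 0.538. The tendon sum differs in sign from its median in ScxHt/Control. There 6 of the 7 genes were above 1, against 52.6% of all genes, and the median log2 ratio was 0.40. The part of muscle, blood and other tissue in the endothelial values was not tested.

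**Figure D5:**
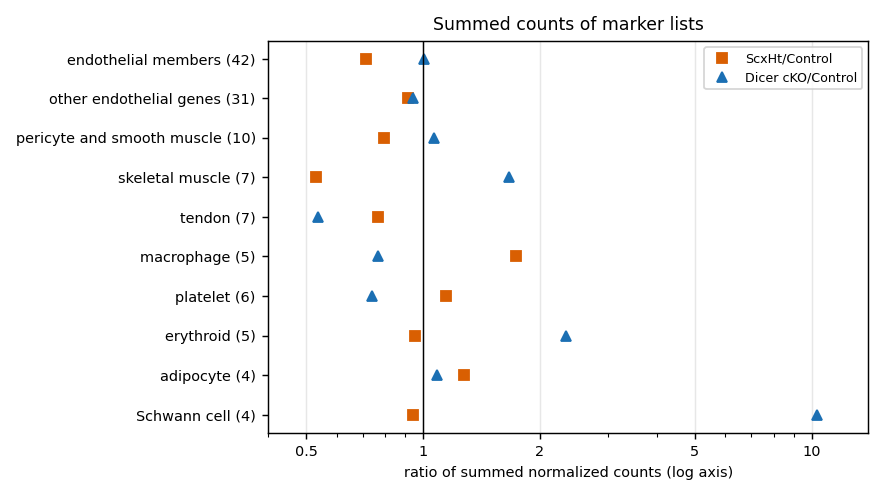
Ratio of summed normalized counts on a log axis for the 42 endothelial genes and for lists of markers of other cells, with the number of genes in brackets (squares ScxHt/Control, triangles Dicer cKO/Control). The endothelial sum is at 0.712 and 1.01, the pericyte and smooth muscle sum at 0.793 and 1.07, and the skeletal muscle sum at 0.529 and 1.66.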

How the data were processed

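Achilles tendon RNA was read by RNA-seq and by small RNA-seq in 1 Control, 1 ScxHt and 1 Dicer cKO library each. The authors removed adaptors, mapped reads to GRCm38 with TopHat and Bowtie2, assigned them to genes with HTSeq and deposited raw counts. Versions, annotation release and strand setting are not given in the sources used here. The RPKM values, also deposited by the authors, were made from the same counts, library totals and feature lengths, and were used only to compare levels between genes. Of the lines of the count table, 463 are exact repeats of another line and were kept. Small RNA-seq counts were used for Mir126a and Mir126b alone, and added up to 8435829 to 10986541 per library.

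Size factors of each pair of libraries came from DESeq2 1.42.0 in R 4.3.3 over the whole table, and ratios and 95% Clopper-Pearson intervals were computed in Python 3.11.15 with scipy 1.17.1 and pandas 2.3.3. The limits were 1.67 and 0.60 at a mean normalized count above 50. No pseudocount or shrinkage was used. Reads are not independent molecules, so intervals cover counting error only. Odds ratios to the core genes are conditional estimates with exact intervals. Positions came from GENCODE vM21, where the exonic length of all 42 members was within 1% of that implied by the RPKM values. Of the members, 9 share exonic bases with another annotated gene (Egfl7, Sox17, Prox1, Ackr1, Angpt1, Nos3, Dll4, Ephb4 and Nrp1), and their counts are less certain. The procedure was tested on simulated data.

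All 42 members are named, and of the lists of other pathway and endothelial genes those past a threshold. Further genes named from any list are examples chosen after their values were seen. The members, lists and core genes were chosen with earlier results of these data known. Scaling was repeated with TMM (edgeR 4.0.16), with library totals, with library totals less every feature that exceeded 1% somewhere, and with size factors over all 3 libraries, and other minimum counts, thresholds and a pseudocount of 1 were tried. Figures were drawn with matplotlib 3.10.9.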

Additional observations from a re-analysis of the deposited data

How the results depend on the processing

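No paired analysis was possible because each genotype had 1 library per assay. In 2 comparisons the median log2 ratio of the 42 members kept its direction under every scaling, minimum count and pseudocount tried. It ran from -0.54 to -0.37 for ScxHt/Control and from 0.47 to 0.57 for Dicer cKO/ScxHt. For Dicer cKO/Control it ran from -0.08 to -0.005 and had no clear direction, with 21 members above 1 and 21 below under library totals. With library totals as the scale, the all-gene median shifted by 0.11 on the log2 scale for ScxHt/Control. A change of scaling shifts every gene by the same amount, so the distance between members and all genes, -0.49 on the log2 scale, is fixed by construction and says nothing about stability. The number of members below 0.60 for ScxHt/Control was 3 with total counts (Podxl, Sox7 and Notch4), 2 with thresholds of 2 and 0.5 (Sox7 and Notch4) and 3 with the whole interval past the threshold (Podxl, Sox7 and Notch4). The 6 reported became 8 with TMM or with size factors over all 3 libraries, which added Tie1 and Vegfa. For Dicer cKO/ScxHt, the 10 members past the upper limit became 4 with thresholds of 2 and 0.5 and 4 with the whole interval past the threshold, and Sox7, Notch4 and Aplnr were among them in both. For Dicer cKO/Control, the number of members past the upper limit went from 0 to 1 with total counts, where Aplnr passed. Of the 126 single ratios, 9 left their counting interval with total counts and none did under the other scalings or the pseudocount. The alternative scalings of the count of members lowest in ScxHt were chosen after seeing the data and gave 33 to 36. All members had more than 50 reads in every library, and those near this depth, such as Tal1, Icam2 and Ackr1, have wider intervals than deeply read members such as Cdh5.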
